A study of Mus musculus with 11 samples.

Results

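The core circadian clock genes described here are 10 genes chosen by symbol: Clock and Arntl, the period genes Per1, Per2 and Per3, the cryptochrome genes Cry1 and Cry2, the nuclear receptor genes Nr1d1 and Nr1d2, and Dbp. All 10 were among the 12787 genes of the table. They were measured by RNA sequencing in the gonadal white adipose tissue (WAT) of 11 male C57BL/6J mice. The HFD group held 5 mice kept on a 60% high fat diet for 20 weeks, labelled as vehicle. The HFD + IMC group held 6 mice kept for the same time on that diet with 0.06% w/w iodomethylcholine (IMC), a small molecule that blocks the choline trimethylamine lyase of gut bacteria. The study asked in other mice whether this drug alters the rhythm of clock genes, and the comparison here asks whether their levels in WAT differed between the 2 diets. Each mouse gave 1 library, and the sources used here do not give the time of day at which the WAT was taken. The age of these mice is not stated, but male mice given the same diets for the same time in this study began them at 6 weeks of age.

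The circadian clock is a feedback loop of transcription found in most mammalian cells, adipocytes included. The proteins CLOCK and ARNTL (also called BMAL1) bind E-box sequences and switch on the period and cryptochrome genes, whose products come back to the nucleus and inhibit them. A further loop runs through the REV-ERB proteins encoded by Nr1d1 and Nr1d2, which repress Arntl, and the output factor DBP carries the rhythm to other genes through D-box sequences. In a running clock the level of Arntl is therefore high when Nr1d1, Dbp and the period genes are low, and low when they are high.

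All 9 members with a promoter window in the RefSeq table (build GRCm38.p6) were searched for these elements on both strands, over the 250 bases before the 5′-most listed start, and Per2 had no window. The letters searched were CACGTG for the E-box, CACGTT for the E′-box, TTATGTAA and TTACGTAA for the D-box, AGGTCA for the core of the site shared by ROR and REV-ERB proteins, and TGACGTCA for the cAMP response element. The E-box letters are in 6.02% of all 32851 windows of that length, the E′-box letters in 3.85%, the 2 D-box forms in 0.819% and 0.113%, the ROR and REV-ERB core in 14.0%, and the cAMP response element in 1.55%. A match is a run of letters and not a measured binding site. The windows of 5 members are shown, those of Cry2 and Nr1d2, which passed the test between the diets, and those of Nr1d1, Per3 and Arntl, which carried close relations between mice, and capitals mark the matches. Clock and Dbp meet the same grounds but are not shown, since 167 of the 250 bases of the Clock window are exons of Gm7467 on the other strand and 159 of those of Dbp are exons of Dbp itself.
Cry2: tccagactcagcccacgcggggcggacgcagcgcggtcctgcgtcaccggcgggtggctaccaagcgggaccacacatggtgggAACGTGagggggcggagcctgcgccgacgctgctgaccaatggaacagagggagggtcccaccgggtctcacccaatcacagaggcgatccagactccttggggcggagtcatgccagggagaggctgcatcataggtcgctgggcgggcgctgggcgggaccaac
Nr1d2: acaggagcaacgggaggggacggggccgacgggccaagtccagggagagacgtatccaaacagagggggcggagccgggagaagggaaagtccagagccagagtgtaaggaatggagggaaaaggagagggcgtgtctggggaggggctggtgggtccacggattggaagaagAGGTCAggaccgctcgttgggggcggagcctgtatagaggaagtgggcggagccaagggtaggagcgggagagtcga
Nr1d1: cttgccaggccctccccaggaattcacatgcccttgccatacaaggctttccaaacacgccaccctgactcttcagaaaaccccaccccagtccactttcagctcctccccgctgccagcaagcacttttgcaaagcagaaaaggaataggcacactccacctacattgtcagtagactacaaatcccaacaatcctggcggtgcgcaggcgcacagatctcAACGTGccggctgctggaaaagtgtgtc
Per3: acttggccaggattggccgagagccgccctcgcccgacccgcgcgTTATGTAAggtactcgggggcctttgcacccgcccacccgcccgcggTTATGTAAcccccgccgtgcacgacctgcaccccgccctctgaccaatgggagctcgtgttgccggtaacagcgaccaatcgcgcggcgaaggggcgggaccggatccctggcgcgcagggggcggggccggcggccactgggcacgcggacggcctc
Arntl: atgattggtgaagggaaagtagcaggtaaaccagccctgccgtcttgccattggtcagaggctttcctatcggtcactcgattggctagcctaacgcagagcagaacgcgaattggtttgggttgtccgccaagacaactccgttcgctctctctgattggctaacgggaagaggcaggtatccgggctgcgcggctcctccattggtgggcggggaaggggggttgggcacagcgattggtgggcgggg
The Cry2 window (chr2:92434070-92434319, minus strand) holds 1 E′-box match, read on the opposite strand, from base -166 to -161 before the start. The window of Nr1d1 (chr11:98775378-98775627, minus strand) holds 1 such match from -28 to -23. In Nr1d2 (chr14:18239107-18239356, minus strand) the ROR and REV-ERB core lies from -77 to -72. The Per3 window (chr4:151044666-151044915, minus strand) holds the D-box letters TTATGTAA in 2 places, from -205 and from -158. The Arntl window (chr7:113207215-113207464, plus strand) holds none of the searched letters, nor do those of Clock and Dbp, and it lies inside the gene as annotated, which starts at 113178471. Of the members not shown, Per1 holds an E-box match from -166 and the ROR and REV-ERB core from -137. Cry1 holds an E-box match from -60 and an E′-box match from -79. The Per1 window (chr11:69098699-69098948, plus strand) also lies inside its gene as annotated, which starts at 69095108. So does the Clock window (chr5:76304793-76305042, minus strand), whose gene reaches 76305603. Those of Cry2, Per3 and Dbp lie partly inside their genes.

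Sequencing depth on the listed genes ran from 22320022 to 25155366 reads a mouse, and the members had between 152 reads (Cry1 in its lowest mouse) and 3217 reads (Nr1d1 in its highest). Levels are in log2 CPM, the log2 of CPM (reads relative to library size) as the authors scaled and deposited them, and fold changes are HFD + IMC minus HFD on that scale. Tests are limma with Benjamini-Hochberg adjustment over all 12787 genes, and a gene was called at an adjusted p under 0.05. In these mice 40.9% of all genes were called, 20% higher and 21.0% lower in HFD + IMC, and 23.1% had no overlap between the groups. All 10 adipocyte markers of the list were present, Adipoq, Plin1 and Lep among them, and cell type markers differed between the groups. The summed level of 10 adipocyte markers ranged from 19379 to 24002 CPM in HFD and from 29596 to 34239 CPM in HFD + IMC, with 9 of 10 higher. The summed level of 10 macrophage markers ranged from 8453 to 11493 CPM in HFD and from 5024 to 8247 CPM in HFD + IMC, with 9 of 10 lower. Of 9 skeletal muscle markers 4 were listed and all 4 were higher. Their summed level was 19.0 to 27.4 CPM in HFD and 71.0 to 102.6 CPM in HFD + IMC. Ckm, Myh1, Myh4, Tnnt3 and Mylpf were not listed. The authors had removed genes below 1 CPM in all samples. Myh2 was under that limit in every HFD mouse (at most -0.64 log2 CPM) and at least 1.38 log2 CPM in HFD + IMC. It was thus listed only through the HFD + IMC mice, so its direction was partly set by the filter. Acta1, Trdn and Ldb3 lay above the limit in every mouse. None of 5 lymphocyte markers was listed. Of the other lists, 1 of 5 endothelial markers was higher, 2 of 5 fibroblast and progenitor markers were lower, and 0 of 3 listed mesothelial markers passed. In bulk tissue, fewer cells of a type and less RNA per cell cannot be told apart, and the part of these shifts in the results below was not tested.

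In the WAT of mice fed IMC the repressor gene Cry2 and the activator gene Clock were higher than in HFD mice and the REV-ERB gene Nr1d2 was lower, while the other 7 core clock genes did not pass the test. The 3 called members, 2 higher and 1 lower, stand against the 40.9% of all genes given above, so the share called among the members was no larger than among all genes. No overlap between the groups was seen for 2 of the 10 members, Cry2 and Clock, against 23.1% of all genes. The median absolute log2 fold change of the members was 0.20, against 0.17 for all genes. The median log2 fold change of the members was 0.06, against -0.03 for all genes.

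**Figure D1:**
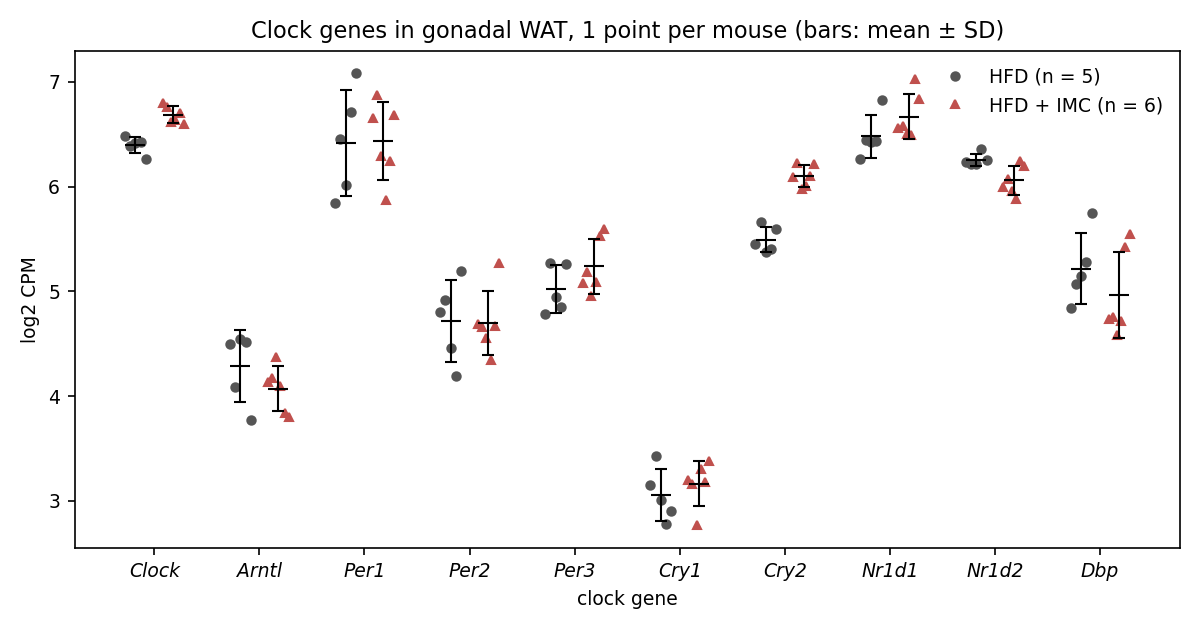
The level of each clock gene in log2 CPM is plotted for every mouse, with circles for the 5 HFD mice, triangles for the 6 HFD + IMC mice, and bars for the mean ± SD. Cry2 and Clock are the members whose groups stand apart (Cry2 5.37 to 5.66 against 5.98 to 6.23), and the points of the other 8 overlap.

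Cry2 encodes a cryptochrome, a repressor that binds CLOCK and ARNTL. Its level was 5.45, 5.66, 5.37, 5.41 and 5.59 log2 CPM in the 5 HFD mice. In the 6 HFD + IMC mice its level ran from 5.98 to 6.23 log2 CPM, with a median of 6.10. Every mouse fed IMC therefore lay above every mouse on the HFD alone. Cry2 rose by 0.61 on the log2 scale, 1.52-fold (SE 0.07 log2, limma adjusted p = 3.64e-05), and it ranked 138 by p among all genes. The exact permutation test of the difference gave p = 0.00216 (two-sided), the smallest that 462 splits of 5 and 6 mice allow. Its adjusted p stayed between 3.64e-05 and 0.000202 under all 17 alternative settings. Cry2 lies on chromosome 2 (92403646 to 92434085, GRCm38.p6) and overlaps the gene D930015M05Rik. The libraries were directional, but the strand setting of the count is not given in the sources used here, so reads of overlapping genes may have been shared.

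Its paralog Cry1 did not pass the test. Cry1 was the member with the fewest reads, at 3.15, 3.43, 3.01, 2.79 and 2.91 log2 CPM in HFD. In HFD + IMC it ran from 2.77 to 3.38 log2 CPM, with a median of 3.19. The groups overlapped over nearly their whole range, and the fold change of 0.11 on the log2 scale had a 95% interval from -0.17 to 0.39 (limma adjusted p = 0.523). The difference between the paralogs was then taken within each mouse. The log2 ratio of Cry2 to Cry1 was 2.44 ± 0.20 (SD, n = 5) in HFD and 2.94 ± 0.18 (SD, n = 6) in HFD + IMC, without overlap. It was 0.50 higher in HFD + IMC, with p = 0.00433 by the two-sided exact permutation test and 0.0130 after adjustment over 3 such ratios. These 3 ratios were chosen after the values were seen, so their p-values add no separate support to the differences that led to the choice.

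Clock encodes the partner of ARNTL in the activating dimer. It was expressed at 6.48, 6.39, 6.41, 6.43 and 6.27 log2 CPM in the HFD mice. The HFD + IMC mice ran from 6.60 to 6.80 log2 CPM, with a median of 6.67. The lowest mouse fed IMC lay above the highest HFD mouse by a narrow margin. Clock rose by 0.29 on the log2 scale, 1.22-fold (SE 0.05 log2, limma adjusted p = 0.000803, exact permutation p = 0.00216), and its adjusted p stayed between 0.000642 and 0.00256 under all 17 alternatives. Clock lies on chromosome 5 (76209868 to 76305603), where the pseudogene Ube2n-ps1 and the gene Gm7467 overlap it.

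Arntl, the partner in that dimer, did not pass the test. It was at 4.50, 4.09, 4.55, 4.52 and 3.77 log2 CPM in the HFD mice. In HFD + IMC it ran from 3.80 to 4.38 log2 CPM, with a median of 4.12. HFD mouse 5 held the lowest level of all 11 mice, below each of the mice fed IMC, and 3 of the HFD mice lay above all of them. The fold change was -0.21 on the log2 scale (95% interval -0.53 to 0.11, limma adjusted p = 0.272). That result depended on 1 library, since without HFD mouse 5 the fold change was -0.34 with an adjusted p of 0.0439. The log2 ratio of Clock to Arntl was 2.11 ± 0.28 (SD, n = 5) in HFD and 2.61 ± 0.22 (SD, n = 6) in HFD + IMC, with overlapping groups. It was higher by 0.50 in HFD + IMC (two-sided exact permutation p = 0.0152, adjusted p = 0.0152 over the 3 ratios). This ratio too was chosen after the values were seen.

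The REV-ERB genes lay in opposite directions. Nr1d2 was at 6.23, 6.22, 6.22, 6.36 and 6.25 log2 CPM in the HFD mice. In HFD + IMC it ran from 5.88 to 6.25 log2 CPM, with a median of 6.04. The groups touched only through HFD + IMC mouse 5, whose 6.25 lay among the HFD values, while the other 5 were at or below 6.20. Nr1d2 fell by 0.19 on the log2 scale, to 0.874 of its HFD level (SE 0.06 log2, limma adjusted p = 0.0289, exact permutation p = 0.0238). This call was lost in 4 of the 11 fits that left out a mouse, with adjusted p of 0.0742 without HFD mouse 4, 0.0571 without HFD + IMC mouse 1, 0.0586 without HFD + IMC mouse 3 and 0.0549 without HFD + IMC mouse 4.

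Nr1d1 lay in the other direction without passing the test. It was at 6.27, 6.44, 6.43, 6.44 and 6.83 log2 CPM in HFD. In HFD + IMC it ran from 6.49 to 7.03 log2 CPM, with a median of 6.57. HFD mouse 5 was high and lay within the range of the mice fed IMC, while the other 4 HFD mice lay below all of them. The fold change was 0.19 on the log2 scale (95% interval -0.05 to 0.42, limma adjusted p = 0.201), and it moved both ways with single mice, to 0.27 (adjusted p = 0.0463) without HFD mouse 5 and to 0.11 (adjusted p = 0.379) without HFD + IMC mouse 5. The log2 ratio of Nr1d1 to Nr1d2 was 0.23 ± 0.21 (SD, n = 5) in HFD and 0.61 ± 0.10 (SD, n = 6) in HFD + IMC. The ratio was higher by 0.38 with p = 0.00866 by the two-sided exact permutation test and 0.0130 after adjustment, although the groups overlapped through HFD mouse 5. Nr1d1 lies on chromosome 11 (98767932 to 98775377) and overlaps Thra on the opposite strand, so the limit on strand given for Cry2 applies to it as well.

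The period genes, the partners of the cryptochromes in the repressing complex, did not pass the test. Per1 was at 5.84, 6.45, 6.01, 6.71 and 7.08 log2 CPM in HFD and ran from 5.87 to 6.88 log2 CPM in HFD + IMC, with a median of 6.47. Per2 was at 4.81, 4.92, 4.46, 4.19 and 5.19 log2 CPM in HFD and ran from 4.35 to 5.27 log2 CPM in HFD + IMC, with a median of 4.66. Per3 was at 4.79, 5.27, 4.94, 4.85 and 5.26 log2 CPM in HFD and ran from 4.96 to 5.60 log2 CPM in HFD + IMC, with a median of 5.14. The groups of all 3 genes overlapped, and HFD mouse 5 held the highest Per1 of the 11 mice. The fold change of Per1 was 0.02 (95% interval -0.46 to 0.49), that of Per2 was -0.02 (-0.40 to 0.37) and that of Per3 was 0.22 (-0.06 to 0.49), all on the log2 scale with limma adjusted p of 0.960, 0.949 and 0.198. The sign for Per1 and Per2 changed when single mice were left out, and that for Per1 also with total-count scaling.

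Dbp, the output gene of the loop, varied widely in both groups. It was at 4.84, 5.07, 5.14, 5.28 and 5.75 log2 CPM in the HFD mice. The HFD + IMC mice ran from 4.59 to 5.55 log2 CPM, with a median of 4.75. In that group mice 5 and 6 stood at 5.42 and 5.55, and the other 4 lay between 4.59 and 4.76, below every HFD mouse. The fold change was -0.25 on the log2 scale (95% interval -0.67 to 0.16, limma adjusted p = 0.318), and without HFD mouse 5 it was -0.12 (adjusted p = 0.633). Dbp lies on chromosome 7 (45705100 to 45710203) and overlaps Sphk2.

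**Figure D2:**
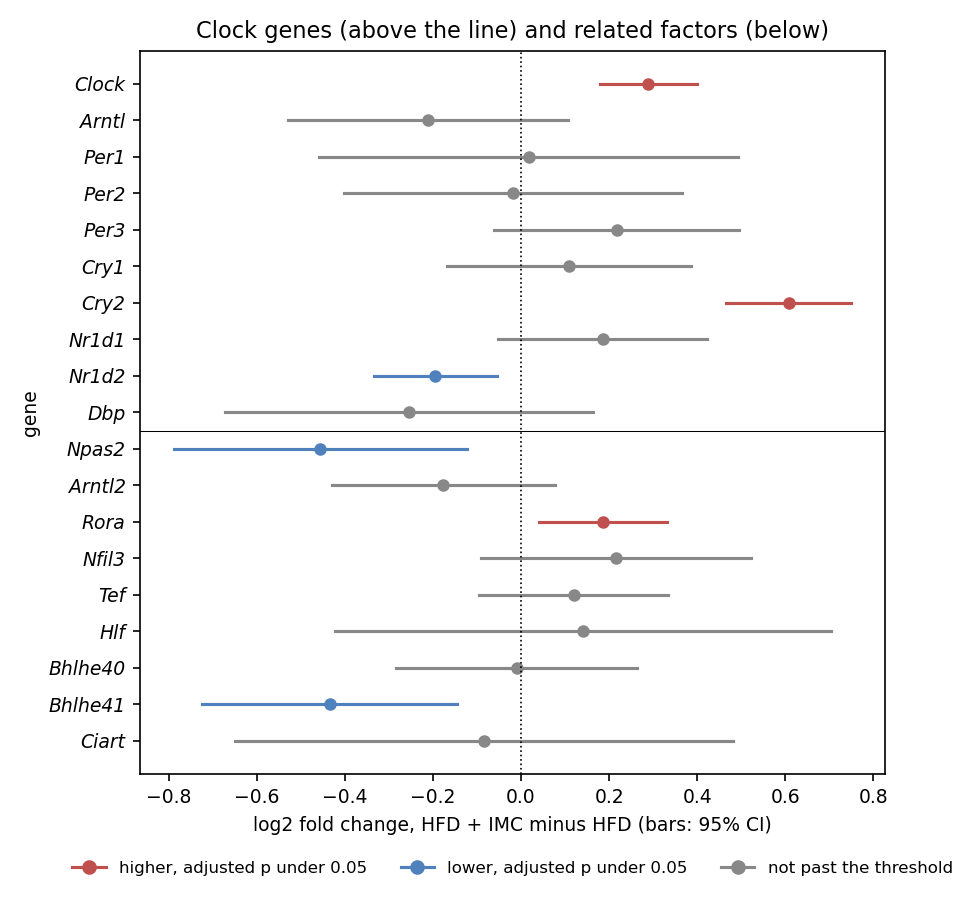
Points are log2 fold changes, HFD + IMC minus HFD, and bars their 95% intervals, for the 10 clock genes above the line and 9 related clock factors below it. The intervals of Cry2 (0.47 to 0.75) and Clock (0.18 to 0.40) lie well above 0, and those of Per1, Per2, Dbp, Hlf and Ciart are wide on both sides.

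The members varied widely between mice of the same group. Their median residual SD, the spread left after the group means were removed, was 0.24 log2 CPM against 0.13 for all genes. This was not particular to them, since the median was 0.26 for the other clock factors, 0.31 for the immediate early genes and 0.34 for the skeletal muscle markers listed. Per1 had a residual SD of 0.44, larger than that of 96.3% of the genes of the table, Dbp one of 0.38 (93.5%), Per2 one of 0.35 (91.3%) and Arntl one of 0.28 (85.5%). Clock, Nr1d2 and Cry2 had the lowest spread among the 10, at 0.08, 0.11 and 0.11. These are also the 3 members that were called. Transcripts of core clock genes change with the hour in most tissues, and the part of collection time in this spread was not tested.

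The spread was shared between members. HFD mouse 5 and HFD + IMC mice 5 and 6 had the lowest Arntl of the 11 mice (3.77, 3.84 and 3.80 log2 CPM) together with the highest Dbp (5.75, 5.42 and 5.55) and the highest Nr1d1 (6.83, 7.03 and 6.84). Nr1d1 and Dbp were thus high in the mice with the lowest Arntl, of which only HFD mouse 5 was in the HFD group. HFD mouse 2 had the next lowest Arntl (4.09 log2 CPM), but its Nr1d1 and Dbp lay below their group means (-0.04 and -0.15). The log2 ratio of Dbp to Arntl was 1.98 in HFD mouse 5, and 1.58 and 1.75 in HFD + IMC mice 5 and 6. It lay between 0.34 and 0.98 in the other 4 HFD mice and between 0.21 and 0.62 in the other 4 HFD + IMC mice. Its group means were 0.93 ± 0.63 (SD, n = 5) and 0.89 ± 0.62 (SD, n = 6), a difference of -0.04 that is small beside the spread in either group. HFD mouse 5 and HFD + IMC mouse 6 each had the lowest macrophage sum of their group (8453 and 5024 CPM). HFD mouse 5 also had the highest adipocyte sum of the HFD mice (24002 CPM). That of HFD + IMC mouse 6 was 33395 CPM, near the top of its group (34239 CPM). HFD + IMC mouse 5 differed, with the lowest adipocyte sum of its group (29596 CPM) and a macrophage sum of 7248 CPM. The part of cell makeup in the ratio was not tested.

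**Figure D3:**
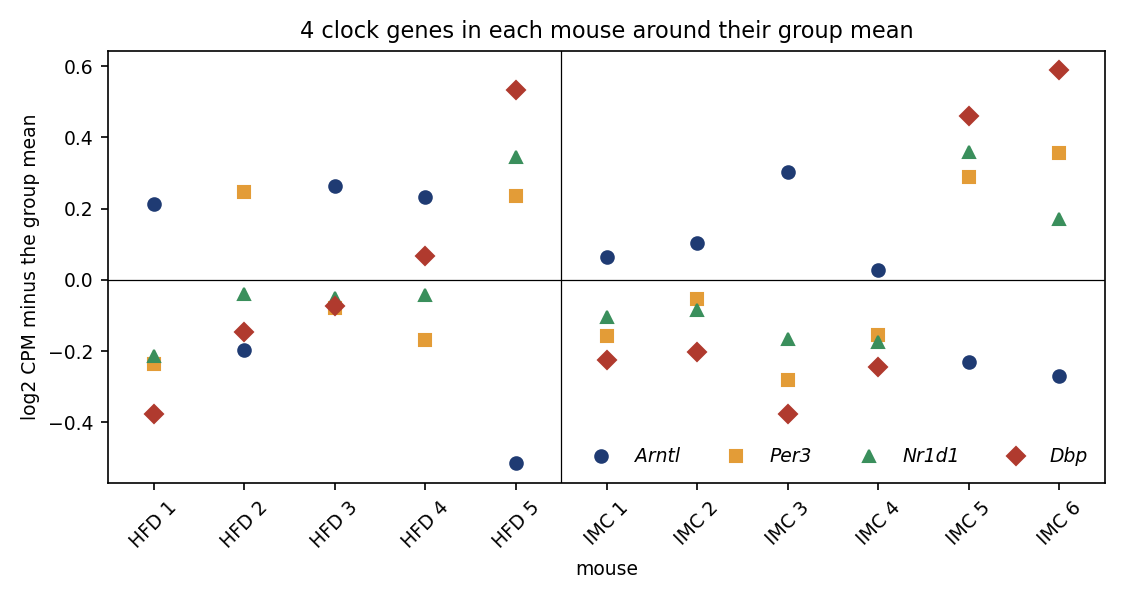
The level of Arntl, Per3, Nr1d1 and Dbp in each mouse is plotted as log2 CPM minus the mean of its group, with HFD mice left of the line and HFD + IMC mice (marked IMC) right of it. In HFD mouse 5 and HFD + IMC mice 5 and 6 Arntl lies below its mean (by 0.23 or more) while the other 3 genes lie above theirs.

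Correlations between the members were computed over the 11 mice after the group means were removed, with permutation p-values and adjustment over all 45 pairs. Arntl correlated negatively with 8 of the 9 other members, all but Clock. Of the 28 pairs that hold neither Arntl nor Clock, 27 were positive over the 11 mice. Over the 8 mice that remain without HFD mouse 5 and HFD + IMC mice 5 and 6, 20 were positive. Signs were not counted for pairs of other genes, so this pattern cannot be called particular to the clock genes. The two-sided permutation p was under 0.05 for 13 pairs by Pearson's r and for 11 by Spearman's rho, and after adjustment for 2 pairs by r and for 0 by rho. The first was Arntl with Per3, at r = -0.88 (permutation p = 0.00150, adjusted 0.0414) and rho = -0.80 (p = 0.00561, adjusted 0.0841). The second was Nr1d1 with Dbp, at r = 0.94 (permutation p = 0.00184, adjusted 0.0414) and rho = 0.93 (p = 0.00180, adjusted 0.0810). With the 2 mice farthest from the median of the first gene of the pair left out, r was -0.92 for Arntl and Per3. It was 0.96 for Nr1d1 and Dbp. The number of pairs past the adjusted threshold moved with single mice. It was 0 without any of HFD mice 1, 3 and 5 and HFD + IMC mice 1 to 4, 1 without HFD + IMC mouse 5 or 6, 5 without HFD mouse 2 and 7 without HFD mouse 4.

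Other pairs near the threshold were Per3 with Nr1d1 (r = 0.83, permutation adjusted p = 0.0541), Arntl with Nr1d1 (r = -0.82, adjusted 0.0584), Arntl with Dbp (r = -0.78, adjusted 0.0584) and Per3 with Dbp (r = 0.83, adjusted 0.0730). In the 8 mice other than the 3 with a high ratio of Dbp to Arntl, a choice made after the values were seen, r was -0.88 for Arntl and Per3 and 0.84 for Nr1d1 and Dbp. In the same 8 mice r was -0.09 for Arntl and Dbp, -0.29 for Arntl and Nr1d1, and 0.25 for Per3 and Dbp. Those 3 mice were left out for their Dbp and Arntl levels, so part of the fall in r is set by the choice. With only the 2 mice farthest from the median of the first gene left out, r was -0.55 for Arntl and Dbp and -0.64 for Arntl and Nr1d1. It was 0.58 for Per3 and Dbp. Those 2 mice were HFD mouse 5 and HFD + IMC mouse 6 for the Arntl pairs, and HFD + IMC mice 5 and 6 for Per3 with Dbp. Both were in each case among the same 3 mice, so this is not a separate check.

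**Figure D4:**
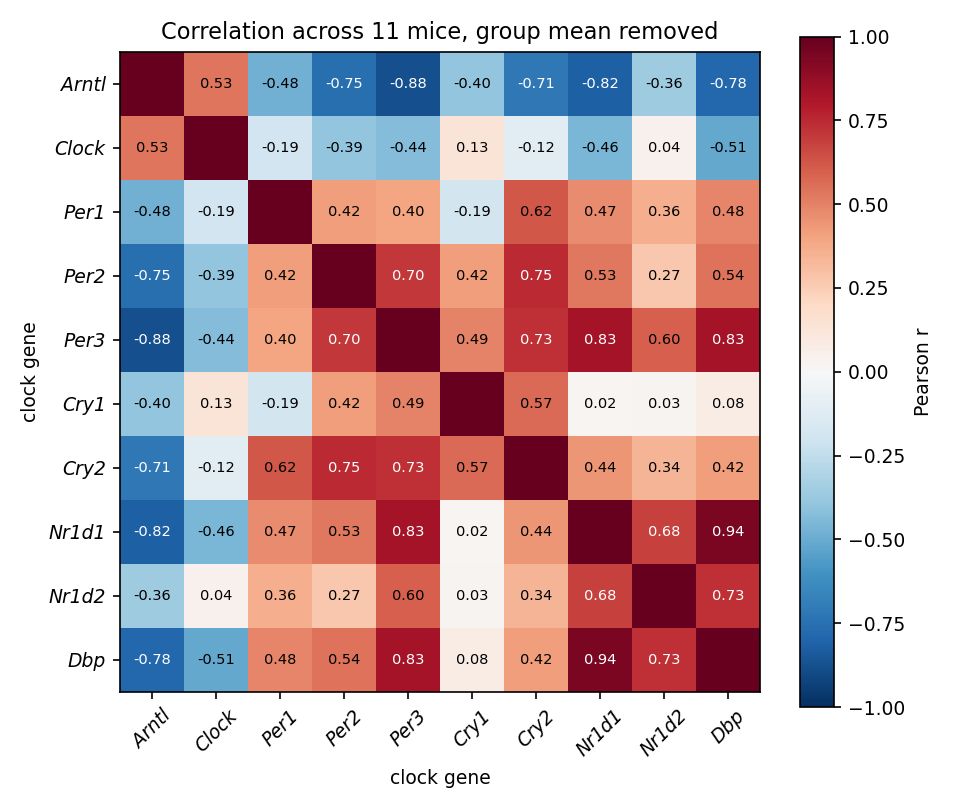
Each cell of the heat map holds Pearson's r between 2 clock genes over 11 mice with group means removed, from blue (-1) to red (1). The Arntl row is negative for 8 of 9 genes, and the block of Per3, Nr1d1 and Dbp is positive at 0.83 to 0.94.

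All other 12786 genes were ranked by the same r with Dbp and with Arntl, as a description with no test over points that share library and depth. The genes most like Dbp were Rasal1 (r = 0.94), Nr1d1 (0.94), Zfp503 (0.93), Ccdc85b (0.93), Zfyve21, Repin1, Tpgs1 and Med16 (0.89 each). Nr1d1 ranked 2, Tef ranked 10, Per3 ranked 41, Hlf ranked 135 and Ciart ranked 153. Other clock genes lay further down, with Nr1d2 at 217, Rora at 1087, Per2 at 1113, Per1 at 1557 and Cry2 at 2185. Nfil3 was at 4091, Cry1 at 5889 and Bhlhe41 at 6807, and Bhlhe40, Arntl2, Npas2 and Clock lay between 8826 and 11684. The 3 mice with a high ratio of Dbp to Arntl are among the points, and the ranks were not computed without them. Tef and Hlf encode relatives of DBP that bind the same D-box, and Ciart encodes a repressor of CLOCK and ARNTL. Among the genes least like Dbp were Twistnb (-0.94), Ifitm6 (-0.90), Glipr2 (-0.89), Atf1 (-0.87), Brip1os (-0.87) and Gm14295 (-0.86), and Arntl ranked 47 from that end.

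The genes most like Arntl were Rrp8 (r = 0.95), Cdc42se1 (0.95), Uhrf1bp1l (0.92), Il15 (0.92), Tpm3 (0.91), Arf3 (0.91), Lrp11 (0.89) and Ostm1 (0.88), none of them a clock factor of the lists. The 8 least like it were Rpl36 (-0.90), Sox17 (-0.90), Ece1 (-0.90), Ltbp3 (-0.89), Gnal (-0.89), Tef (-0.89), Optn (-0.88) and Per3 (-0.88). Per3 and Tef were thus the clock genes farthest from Arntl, at ranks 8 and 6 of 12786 from that end, followed by Nr1d1 at 63, Dbp at 135 and Per2 at 196. The rest of the clock genes ranked from 345 (Cry2) to 11612 (Clock) from that end.

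The order of the members by abundance was set per length, as log2 CPM per kilobase of exon in the HFD mice (GENCODE vM21 exons). Nr1d1 was highest at 4.86 ± 0.21 (SD, n = 5) and did not overlap the next gene. Per1 at 3.93, Nr1d2 at 3.82 and Dbp at 3.64 followed, and neighbours in this order overlapped. Cry2 followed at 2.84 without overlap, but only narrowly above Clock (lowest Cry2 2.713, highest Clock 2.704). Clock was at 2.62, Per2 at 2.17, Per3 at 1.76, Arntl at 1.37 and Cry1 at 1.32, and from Clock on neighbours overlapped. In HFD + IMC the level of Cry2 was 3.44 ± 0.10 and that of Dbp was 3.38 ± 0.41 on this scale (SD, n = 6). The range of Cry2 there (3.32 to 3.57) lay inside that of Dbp (3.01 to 3.97).

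Factors that join or tune this loop were taken from lists chosen with earlier results of these data known. Of 11 other clock factors 9 were listed, and 1 was higher and 2 lower, where 40.9% of all genes were called. Bhlhe41 (DEC2), which represses transcription at E-boxes, fell by 0.44 on the log2 scale (limma adjusted p = 0.0204). Npas2, which can stand in for CLOCK as the partner of ARNTL, fell by 0.46 (limma adjusted p = 0.0308), from 3.38 ± 0.30 to 2.93 ± 0.27 log2 CPM (SD). This was the opposite direction to Clock. Rora, the activator that competes with the REV-ERB proteins at Arntl, rose by 0.19 (limma adjusted p = 0.0407). The call for Npas2 was lost without any of HFD mice 1 and 3 and HFD + IMC mice 1, 4, 5 and 6 (adjusted p up to 0.0867). That for Rora was lost without any mouse but HFD mouse 2 and HFD + IMC mice 3 and 4 (adjusted p up to 0.113). Arntl2, Nfil3, Tef, Hlf, Bhlhe40 and Ciart did not pass, with log2 fold changes from -0.18 (Arntl2) to 0.22 (Nfil3).

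Of 16 kinases, ubiquitin ligases and partners that set the stability or action of PER and CRY proteins 15 were listed. Of these 1 was higher and 2 were lower, where 40.9% of all genes were called. Gsk3b, a kinase that acts on several clock proteins, rose by 0.21 on the log2 scale (limma adjusted p = 0.00250). Csnk1e, the casein kinase that marks PER proteins for turnover, fell by 0.18 (limma adjusted p = 0.00597), and its relative Csnk1d had a fold change of -0.03 (adjusted p = 0.599). Wdr5, a partner of the PER complex, fell by 0.15 (limma adjusted p = 0.0188), and its adjusted p was 0.0527 without HFD mouse 1.

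Of 13 genes commonly driven by the clock 12 were listed, 3 higher and 3 lower, where 40.9% of all genes were called. Tspan4 fell by 0.31 on the log2 scale (limma adjusted p = 0.00132). Ppara, a nuclear receptor for fatty acids and a target of CLOCK and of DBP family factors in other tissues, rose by 0.99 (limma adjusted p = 0.00142). Por, the electron donor of cytochrome P450 enzymes, rose by 0.17 (limma adjusted p = 0.0167). The rest that passed were Klf15 (0.52), Lonrf3 (-0.33) and Klf10 (-0.20).

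Immediate early genes respond within minutes to stimulation, and some share the inducible control of Per1. Of 10 such genes 9 were listed, and 0 were higher and 7 lower, where 40.9% of all genes were called and 21.0% were lower. Their median log2 fold change was -0.52 against -0.03 for all genes. The call for Egr1 was at the threshold (limma adjusted p = 0.04998). Atf3 fell by 0.71 (limma adjusted p = 0.000510), Jun by 0.40 (0.000922) and Ier2 by 0.53 (0.00156). Per1, with a fold change of 0.02, did not lie among them.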

How the data were processed

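RNA from the gonadal WAT of 11 mice was sequenced from directional mRNA libraries, and each mouse was placed in its group by its label. The authors used Trim Galore for trimming and STAR for alignment to mm10 and for counting per gene, removed genes below 1 CPM in all samples, and scaled the libraries by the upper quartile in edgeR. The authors deposited log2 CPM values for 12787 genes. The same table holds 5 columns of the authors' own comparison (fold change, mean level, test statistic, p-value and FDR), which were not used. The submitters dropped 1 further control sample on quality grounds, and it was not analysed here.

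The deposited values were compared with limma 3.58.1 in R 4.3.3 (lmFit, then eBayes with trend) in a model of group alone, with Benjamini-Hochberg adjustment over all genes and a threshold of 0.05. Whole reads were recovered from the equal steps of the values (100% of values whole within 0.1 reads, with a mean added constant of 0.25 reads) and used for depth and for alternatives (limma voom, an added constant of 2 reads, total-count and median-of-ratios scaling). Further alternatives were limma without trend, a filter at a mean of 2 log2 CPM, and leaving out each mouse. Single values per mouse were tested by exact permutation over 462 splits, and correlations with 100000 permutations within groups. Depth covers counting error only, since reads are not independent molecules.

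The members and gene lists were chosen with earlier results of these data known. All 10 members are named, and of each list the 3 genes with the smallest p, which for marker lists are given as sums. The 8 genes with the highest and lowest r with Dbp and with Arntl are named as well, except a few genes not reported here, and other genes only where a count or a comparison turns on them, after their values were seen. The limma and correlation steps were tested on simulated data. Analyses used Python 3.11.15 with numpy 2.4.6, pandas 2.3.3, scipy 1.17.1 and matplotlib 3.10.9.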

Additional observations from a re-analysis of the deposited data

Results flagged for a closer look

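Samples that stood far from the rest of their group were looked for in 64 groups of values. These covered the members, the other clock factors, the other named genes and the ratios. Chance flags about 1 in 20 groups, and 9 of the 64 were flagged. Among the members, Per2 was highest in HFD + IMC mouse 6, at 5.27 log2 CPM against 4.35 to 4.69 in the other 5. Cry1 was lowest in HFD + IMC mouse 3, at 2.77 log2 CPM against 3.16 to 3.38. Nr1d2 was highest in HFD mouse 4, at 6.36 log2 CPM against 6.22 to 6.25, and this is 1 of the 4 mice without which its call was lost.

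Among the other genes, Arntl2 was highest in HFD mouse 1 (2.28 log2 CPM against at most 2.06) and Rora lowest in HFD mouse 3 (5.50 against 5.71 to 5.75). Por was lowest in HFD + IMC mouse 2 (7.87 log2 CPM against 7.98 to 8.05). Atf3 was highest in HFD mouse 1 (8.58 log2 CPM against 8.14 to 8.25) and lowest in HFD + IMC mouse 6 (7.06 against 7.53 to 7.78). Ier2 was lowest in HFD mouse 5 (4.32 log2 CPM against 4.61 to 4.68), the HFD mouse with low Arntl and high Dbp.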

How the results depend on the processing

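The number of genes called lay between 4975 and 5464 under the 6 alternative settings and between 4299 and 5125 when a mouse was left out, against 5236. Under those 6 settings the 3 called members were Clock, Cry2 and Nr1d2 each time, and when a mouse was left out the number of members called ranged from 2 to 5, the highest without HFD mouse 5, where Arntl and Nr1d1 passed as well. Clock and Cry2 were called under all 17 settings. The sign changed only for genes near 0: Per1 was at -0.015 with total-count scaling and between -0.13 and 0.18 when a mouse was left out, Per2 between -0.15 and 0.10, Bhlhe40 between -0.083 and 0.085, and Ciart between -0.26 and 0.053. Rora was not called without the trend (adjusted p = 0.0561, limma) or with total-count scaling (0.0874). The difference of the group means of the Dbp to Arntl ratio ranged from -0.21 to 0.22 when a mouse was left out. The number of member pairs past the adjusted threshold was 5 with median-of-ratios scaling and ranged from 0 to 7 when a mouse was left out, against 2, so the count of pairs is unstable. The causes of these changes were not tested. The scalings moved the median of all genes from -0.02 to -0.06 log2. With 5 and 6 mice taken at hours not given here, differences in members of wide spread, such as Per1 and Dbp, were detectable only if large.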
